A study of Mus musculus with 36 samples.

Results

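A set of 54 probes, out of 46019 on the array, was followed whose signal was not far below its starting level at 12 h of C2C12 differentiation, was steeply lower by 48 h and had not come back by 144 h. C2C12 is an established mouse myoblast line, used here as a single line, that divides in rich medium and leaves the cell cycle and fuses into multinucleated myotubes when serum is lowered. Cultures at 0 h were undifferentiated myoblasts in DMEM with 20% fetal bovine serum, and all later cultures had been moved to DMEM with 2% horse serum for 1, 1.5, 2, 3, 6, 9, 12, 24, 48, 96 or 144 h, so that serum level, serum species and time changed together. Each of the 12 times had 3 replicates, for 36 Illumina Mouse WG-6 v1.1 arrays of total RNA, and the replicates were growths from successive passages of the same line. The median raw intensity of an array lay between 179 and 307. No agent other than the medium was applied.

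Members were chosen on the deposited normalized log2 table. The difference from 0 h, the mean of 3 arrays minus the mean of the 3 arrays at 0 h, had to be above -0.4 at 12 h, at or below -1.2 at 48 h, and at 144 h lower than the 48 h difference plus 0.5, with each of the 3 same-numbered differences at 48 h below 0. Of the 187 probes that met the 48 h limit, all 187 were lower in the 3 same-numbered pairs. The 12 h limit alone left out 82 of them, the recovery limit alone left out 40, and 11 failed both. The member nearest the 12 h limit was a probe of Sfrp1 at -0.3998, and the first probe outside it lay at -0.4002. At 48 h the last member lay at -1.2004 and the first probe outside at -1.1971. For recovery, Rasa1 was inside with a rise of 0.4979 from 48 to 144 h, and the first probe outside had risen by 0.5115. Differences at 12, 48 and 144 h therefore chose the members and are given as a description, without a test. Tests were made only between times whose arrays the choice did not read, which left 24 arrays of 8 times. These times lie between those that the choice read and come from the same growths, so the tests are not wholly independent of it.

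Of the 54 probes, 46 could be given 1 gene symbol and stood for 43 genes; Lix1, Nfib and Sfrp1 had 2 member probes each. All 54 lay above the median intensity of their array on all 36 arrays. Myoblasts hold each other and the growth state through secreted factors, surface receptors and adhesion molecules, and many of these are exchanged for the contractile apparatus as the cells fuse. Chemokines recruit and orient migrating cells, bone morphogenetic proteins act through Smad proteins to hold back muscle differentiation, and secreted frizzled-related proteins bind Wnt ligands. Neuropilins, Robo and Eph receptors read guidance cues. The RNA came from whole cultures, in which fewer cells of a type and less RNA per cell cannot be told apart.

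The 2 genes with the largest fall, Cxcl1 and Ptn, are shown with the bases around their start sites. By 24 h they had covered 28.8% and 6.02% of their fall, where the median over the members was 26.7%. The other genes with a match to the NF-kappaB consensus had covered 15.6% (Pik3r1), 24.1% (Ppp4r3b) and 68.8% (Uaca). A link between such a match and the time of the fall was not tested. The sequences run from upstream of the start of the gene to 50 bases after it, 300 in all, from the RefSeq promoter table on build GRCm38.p6, which held 35 promoters for 28 of the 43 member genes. Capitals mark 2 overlapping matches to the NF-kappaB consensus, searched on both strands; the promoter of Ptn held no match to it.

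Cxcl1 (chr5:90890995-90891294, plus strand): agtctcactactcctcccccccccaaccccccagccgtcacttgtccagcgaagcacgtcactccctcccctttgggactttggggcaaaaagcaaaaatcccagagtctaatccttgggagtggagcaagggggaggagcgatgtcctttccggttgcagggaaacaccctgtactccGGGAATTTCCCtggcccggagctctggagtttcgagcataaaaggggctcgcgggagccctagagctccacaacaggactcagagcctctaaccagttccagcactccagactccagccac

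Ptn (chr6:36810130-36810429, minus strand): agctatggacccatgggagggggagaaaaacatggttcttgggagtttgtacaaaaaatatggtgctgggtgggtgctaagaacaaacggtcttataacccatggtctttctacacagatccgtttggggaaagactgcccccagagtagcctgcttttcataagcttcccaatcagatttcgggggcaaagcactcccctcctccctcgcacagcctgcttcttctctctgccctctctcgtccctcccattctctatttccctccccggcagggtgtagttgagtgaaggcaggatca

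An NF-kappaB match was present in 4 of the 35 member promoters (Cxcl1, Uaca, Ppp4r3b and Pik3r1) and in 4.51% of all 32851 promoters of that length. The AP-1 motif TGANTCA was found in 2 of 35, of Itga3 and Akap11, against 7.81% of all promoters. The TEAD motif GGAATG was found in 5 of 35 against 14.7%, the E-box CANNTG in 21 of 35 against 72.3%, and TATAAA in 1 of 35 against 13.6%, each on both strands. These letters describe the windows only.

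Replicate 1 at 1.5 h, replicate 3 at 9 h and replicate 1 at 144 h stood apart from the other arrays of their time over these probes. On replicate 1 at 144 h, 24 of the 54 members were more than 0.5 log2 units above both other arrays, where 3.44% of all tested probes were. The same held for 22 members on replicate 1 at 1.5 h, against 3.32% of all tested probes, and for 12 members on replicate 3 at 9 h, against 1.32%. The same probes recurred, with 17 members high on both the 1.5 h and the 144 h array, 11 on both the 9 h and the 144 h array, and 9 on all 3. In all, 30 members were high on at least 1 of these arrays, among them Rasa1, Ptbp3, Peg3, Nfib, Kmt2e, Slf2, Bmp4, Thbd, Nrp1, Robo1 and Prkar2b, and 24 on none, among them Cxcl1, Ccl7, Ptn, Masp1, Mgp, Vcam1, Sfrp1 and Lix1. The level of Rasa1, a GTPase-activating protein for Ras, read 11.93, 11.98 and 13.29 on the deposited log2 scale at 9 h, and then 12.60, 10.86 and 11.06 at 144 h, in the order of replicates 1 to 3. At each of these times a single array of Rasa1 was high and the other 2 lay close together. The split into 30 and 24 was made on these 3 arrays, so the medians that follow describe the split and are no separate result. The median over the 30 probes at 144 h was -0.68 from 0 h on replicate 1 and -1.48 and -1.39 on replicates 2 and 3, while over the 24 it was -1.4, -1.33 and -1.27. At 9 h the 30 probes read -0.43, -0.76 and 0.07 on the 3 arrays, and the 24 read -0.22, -0.18 and -0.12. At 1.5 h the 30 read 0.08, -0.50 and -0.57, and the 24 read -0.09, -0.10 and -0.07. The part of RNA quality, hybridisation or culture state in this was not tested. Without replicate 1 at 144 h the rule found 77 probes, 53 of them members, and 24 of the 40 probes left out by the recovery limit alone came within it.

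Up to 12 h the median over the members lay between -0.24 and -0.03 on the deposited table, and the rule's limit at 12 h kept out larger falls at that time. Single members lay between -0.89 (Cxcl1 at 2 h) and 0.56 from 0 h at the times from 1 to 9 h. Median differences from 0 h of -0.13, -0.18, -0.03, -0.06, -0.03, -0.24 and -0.22 were read at 1, 1.5, 2, 3, 6, 9 and 12 h in turn, and 8 members were above their 0 h mean at 12 h. At 24 h the median was -0.65, with an interquartile range of -0.78 to -0.51, and all 3 arrays lay below all 3 arrays at 0 h for 47 members. At 48 h it was -1.34, from -2.74 for Masp1 to -1.2 at the limit. At 96 h it was -1.46, with all 54 members below 0 h on all arrays. The rule did not read the arrays of 24 and 96 h, but it did read those of 0 h. The counts of members wholly below 0 h are therefore not independent of the choice, and their share over all probes was not counted. At 144 h it was -1.28, and -1.37 without replicate 1. The median of all probes was 0.00 at every time. The lowest mean of the course came at 48 h for 20 members, at 96 h for 22 and at 144 h for 12. From 96 to 144 h the mean was higher for 38 members, or for 32 without replicate 1 at 144 h, so that the absence of recovery describes the limit of the rule rather than a flat end.

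The fall between 9 and 96 h passed the test for nearly all members. Both times lie between times that the rule read in the same growths, so the choice itself favoured a fall here. On the raw intensities after background correction and quantile normalization, 53 of 54 probes (98.1%) were lower at 96 h than at 9 h at an adjusted p below 0.05 in limma's test, where 8.56% of the 29812 tested probes were, and 42 were lower by 2-fold or more against 1.43%. The median log2 change was -1.38, between -3.45 and -0.49, and -0.01 over all tested probes, with a median standard error of 0.19. All 3 arrays at 96 h lay below all 3 at 9 h for 53 members, against 15.1% of tested probes. The exception to the call was Akap11, an anchoring protein for protein kinase A, at -0.60 ± 0.24 (SE, n = 3 and 3; limma adjusted p = 0.099). Without replicate 3 at 9 h, 45 members remained lower, which were all 24 of the probes that did not stand high on any of the 3 arrays and 21 of the other 30. That array was 1 of the 3 that set these 2 groups apart. The 8 that lost the call were Ptbp3, both Nfib probes, Kmt2e, Ppp4r3b, Cast, Elovl6 and a probe with no single symbol, and their log2 changes without that array lay between -0.90 and -0.47, where they had been between -1.37 and -0.77. Between 3 and 9 h limma called 0 members in either direction, against 0.141% of probes lower and 0.245% higher. With the replicate number as a block 3 were lower, against 0.983% of probes, and 2 were higher. At an unadjusted p below 0.05, 9 were lower. The share over all probes was not counted for the 2 higher or for these 9.

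More members passed the test from 24 to 96 h than in the shorter interval from 9 to 24 h. From 9 to 24 h, 9 of 54 probes (16.7%) were lower, against 0.362% of all tested probes, and the median change was -0.36, or -0.21 without replicate 3 at 9 h. From 24 to 96 h, 41 (75.9%) were lower against 4.53%, 24 of them by 2-fold or more against 0.55%, and the median change was -0.96. The 9 early ones were also among the 41 and were Cxcl1, Masp1, both Sfrp1 probes, Adam23, Itga3, Mgp, Asap1 and Myl12b, all lower in 3 of 3 same-numbered pairs. Of the rest, 32 were called only from 24 to 96 h and 13 at neither step. By 24 h the members had covered a median of 26.7% of their 9 to 96 h fall, with an interquartile range of 15.7 to 40.0%, and of 18.0% without replicate 3 at 9 h. The share was 4.49% for Vcam1, 6.02% for Ptn and 9.09% for Bmp4, and 56.0% for Mgp, 55.0% for Itga3 and 53.2% for Adam23. The difference between the 2 steps was not tested.

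The 24 h count was the least firm. With the replicate number as a block 16 members were lower from 9 to 24 h, against 1.42% of probes. With the array chip as a fixed or a random block 18 and 14 were, against 1.44% and 0.916% of probes. The 3 same-numbered pairs of these times each shared a chip. Leaving out replicate 2 or replicate 3 throughout left 2 members, and leaving out replicate 2 at 9 h left 5. Among the 30 probes that stood high on at least 1 of the 3 arrays, 0 were called from 9 to 24 h by limma and their median change moved from -0.31 to 0.01 without replicate 3 at 9 h. Among the other 24, 9 were called with or without that array, and the median was -0.46 and -0.41. Values on that array helped to split the probes, so this contrast is partly built in. From 24 to 96 h, leaving out replicate 2 throughout left 23 of the 41 calls.

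Secreted signals and their inhibitors included the 2 largest falls from 9 to 96 h in the tested values, of Cxcl1 and Ptn. The order differed on the deposited scale. There the mean level went from 13.98 to 11.43 for Masp1 and from 10.83 to 8.58 for Cxcl1. For Prkar2b it went from 12.03 to 9.82, and for Ptn from 10.5 to 8.59. All 6 probes of these 5 genes, Cxcl1, Ccl7, Ptn, Bmp4 and Sfrp1, were lower at 96 h than at 9 h and at 96 h than at 24 h, and 3 of the 6 were already lower at 24 h. Cxcl1, a chemokine that attracts neutrophils, read 10.87, 10.75 and 11.16 at 0 h, 10.88, 10.73 and 10.88 at 9 h, 9.87, 10.13 and 9.89 at 24 h, 8.69, 8.92 and 8.81 at 48 h, 8.60, 8.57 and 8.58 at 96 h, and then 8.51, 8.47 and 8.56 at 144 h (deposited log2 level, replicates 1 to 3). Each of these times from 24 h to 96 h lay wholly below the one before it. The change from 9 to 96 h was -3.45 ± 0.17 (SE, n = 3 and 3; limma adjusted p = 1.9e-12), an 11-fold lower signal.

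Ccl7, a chemokine that attracts monocytes, was not below its 0 h level at 24 h. It read 10.70, 10.45 and 10.49 at 0 h, 10.74, 11.02 and 11.03 at 24 h, 9.11, 9.56 and 9.34 at 48 h, and then 9.40, 8.87 and 8.95 at 96 h. The 24 h arrays were all above those at 0 h, and those at 48 h and later were all below. From 24 to 96 h Ccl7 fell by 2.52 ± 0.25 (SE; limma adjusted p = 3.4e-07), after a change of 0.55 ± 0.25 from 9 to 24 h (limma adjusted p = 0.50). Both chemokines were also low early. At 2 h Cxcl1 read 10.37, 9.85 and 9.90 and Ccl7 9.82, 9.41 and 9.80, below every 0 h array of the same gene, and by 9 h the arrays of both overlapped those at 0 h again. From 3 to 9 h the log2 change was 0.65 ± 0.17 for Cxcl1 (limma adjusted p = 0.11) and 0.92 ± 0.25 for Ccl7 (limma adjusted p = 0.12), higher in 3 of 3 same-numbered pairs for each.

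Ptn encodes pleiotrophin, a heparin-binding growth factor. Its level read 10.66, 10.42 and 10.81 at 0 h, 10.45, 10.18 and 10.34 at 24 h, 9.11, 9.33 and 9.36 at 48 h, 8.53, 8.53 and 8.71 at 96 h, and then 8.53, 8.43 and 8.51 at 144 h. The arrays at 24 h overlapped those at 0 h, and every later group lay below. The fall from 9 to 96 h was 8.31-fold (-3.05 ± 0.17, limma adjusted p = 1.1e-11), of which -0.18 ± 0.17 came by 24 h (limma adjusted p = 0.92). Over the alternative settings the change of Ptn from 9 to 96 h lay between -3.15 and -1.90, and its 96 h level was also near the lowest value of the deposited table. Bmp4, a bone morphogenetic protein, read 12.06, 11.71 and 11.56 at 12 h, 11.51, 11.54 and 11.24 at 24 h, and then 10.05, 9.92 and 10.32 at 96 h. It too was late, with -0.14 ± 0.19 by 24 h and -1.45 ± 0.19 from 24 to 96 h (limma adjusted p = 0.96 and 2.1e-05). Sfrp1, which binds Wnt ligands outside the cell, fell in both steps at both of its probes, by 0.71 and 0.65 and then by 1.06 and 0.99.

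Other secreted products were 3 probes, and all 3 were lower at 96 h than at 9 h. The member probe of Masp1, a serine protease of the lectin pathway of complement, read 14.29, 14.02 and 14.30 at 0 h, 13.11, 13.30 and 13.22 at 24 h, 11.06, 11.64 and 11.70 at 48 h, and then 11.16, 11.39 and 11.59 at 144 h. The groups at 0, 24 and 48 h did not overlap. Its signal was 5.18-fold lower at 96 h than at 9 h (-2.37 ± 0.09, limma adjusted p = 4.5e-14). Mgp, matrix Gla protein, which binds calcium and keeps soft tissue from mineralising, was higher at 12 h than at 0 h on all arrays before it fell. It read 15.48, 15.13 and 15.64 at 0 h, 16.00, 15.95 and 15.92 at 12 h, 14.59, 15.24 and 15.14 at 24 h, 13.44, 13.84 and 14.09 at 48 h, and then 13.53, 14.62 and 14.57 at 96 h. The arrays at 96 h spread over more than 1 log2 unit with replicate 1 lowest. Dipk2a, a secreted kinase-like protein, fell by 1.67 ± 0.19 (limma adjusted p = 1.1e-06).

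Receptors and surface proteins made up 10 probes of 10 genes. All 10 were lower at 96 h than at 9 h, with a median log2 change of -1.54, 9 were lower from 24 to 96 h and 2, Itga3 and Adam23, from 9 to 24 h. Vcam1, the adhesion molecule that binds alpha4 integrins and takes part in myoblast contact, read 13.16, 13.14 and 13.45 at 0 h, 12.91, 13.11 and 13.25 at 24 h, 11.49, 11.88 and 11.94 at 48 h, and then 11.76, 11.25 and 11.65 at 96 h. The 24 h arrays overlapped the 0 h arrays and the later ones did not. Vcam1 fell by 1.43 ± 0.14 from 24 to 96 h (limma adjusted p = 3.1e-07). Thbd, thrombomodulin, a thrombin receptor, was 5.05-fold lower at 96 h than at 9 h (-2.34 ± 0.33, limma adjusted p = 2e-05). Its change lay between -2.59 and -1.48 over the alternative settings. Among guidance receptors, the neuropilins Nrp1 and Nrp2, which bind semaphorins and VEGF, fell by 1.30 ± 0.15 and 1.17 ± 0.15, the Slit receptor Robo1 fell by 1.56 ± 0.21 and the ephrin receptor Epha1 fell by 1.88 ± 0.30, with limma adjusted p between 1.2e-06 and 0.0001. Epha1 was the probe not called from 24 to 96 h (-0.90 ± 0.30, limma adjusted p = 0.068). Itga3, the alpha3 subunit of a laminin receptor, read 11.70, 12.08 and 11.60 at 9 h, 10.78, 11.10 and 10.92 at 24 h, and then 9.92, 10.63 and 10.33 at 96 h. None of these 3 groups overlapped the next. Adam23, a catalytically inactive ADAM protein of the cell surface, changed by -0.93 ± 0.18 and then by -0.82 ± 0.18 (limma adjusted p = 0.0036 and 0.0039).

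Intracellular signalling and cytoskeletal genes had a median change of -1.06 over 10 probes, 9 of which were lower from 9 to 96 h and 6 from 24 to 96 h. Prkar2b, a regulatory subunit of protein kinase A, stood apart with a 5.27-fold lower signal. Its level read 12.00, 11.60 and 12.50 at 9 h, 11.91, 11.75 and 11.84 at 24 h, and then 9.83, 9.72 and 9.92 at 96 h, so that the 9 h and 24 h arrays overlapped and all 96 h arrays lay far below. Asap1, an Arf GTPase-activating protein, was lower at both steps (-0.64 ± 0.11 and -0.49 ± 0.11, limma adjusted p = 0.0013 and 0.0051). Pik3r1, the regulatory subunit of PI3 kinase, fell by 1.27 ± 0.22 and Rasa1 by 1.41 ± 0.28 from 9 to 96 h (limma adjusted p = 0.00025 and 0.001).

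Transcription, chromatin and RNA genes gave 10 probes of 9 genes. All 10 were lower from 9 to 96 h, with a median of -1.36, 5 were lower from 24 to 96 h and 0 from 9 to 24 h. Ebf3, an early B-cell factor transcription factor, read 10.62, 10.44 and 11.07 at 9 h, 10.53, 10.57 and 10.42 at 24 h, and then 9.42, 9.22 and 9.49 at 96 h, and fell by 1.72 ± 0.18 (limma adjusted p = 2.8e-07). The arrays of 9 and 24 h overlapped, and those of 96 h lay below both. Slf2, a factor that links Smc complexes to DNA repair, fell by 1.72 ± 0.25 and the imprinted zinc finger gene Peg3 by 1.61 ± 0.29. Nfib, a nuclear factor I protein, had 2 member probes at -0.96 ± 0.25 and -1.03 ± 0.28 (limma adjusted p = 0.0091 and 0.011). Of this group's genes, Slf2, Peg3, Nfib, Kmt2e, Zfhx4, Ptbp3 and Ppp4r3b were among those high on at least 1 of the 3 arrays described above.

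The 4 genes of metabolism and the endoplasmic reticulum were lower from 9 to 96 h, and 2 of them, Ermp1 and Cyb5a, from 24 to 96 h. Cyb5a encodes cytochrome b5, an electron donor to fatty acid desaturases, and fell by 1.12 ± 0.12. Elovl6, which elongates long-chain fatty acids, fell by 0.91 ± 0.29. Lix1, to which no role was assigned here, fell at both member probes, by 2.02 ± 0.17 and 1.88 ± 0.17. The 8 probes with no single gene symbol were also all lower, with a median of -1.23 and a range from -1.64 to -0.91.

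Other probes of the same genes did not all follow. The array held 65 further probes for 29 of the 43 genes, and 44 of these, for 24 genes, lay above the array median on all 3 arrays at 0 h. From 9 to 96 h, 24 of the 44 were lower, 2 higher and 18 were not called, with a median of -0.58. All 4 further probes of Lix1 were lower, from -2.0 to -1.07, and both of Nrp1 were, at -1.15 ± 0.16 and -1.19 ± 0.20. Among the 44, Slf2 had 1 further probe at -1.60 ± 0.20 beside 1 not called. Peg3 had 1 at -1.55 ± 0.21 beside 1 not called (-0.14 ± 0.13, limma adjusted p = 0.57). The clearest disagreement was Masp1. Its member probe was designed on the cDNA AK031598 and read 14.20 at 0 h, the probe on AK043055 read 9.63 and rose by 0.74 ± 0.17 (limma adjusted p = 0.0042), and the 2 probes on the reference transcript NM_008555 read 8.40 and 8.35, close to the floor of the table. What the Masp1 probes say of the protein-coding transcript therefore cannot be read from them. A second probe of Magi3 rose by 1.07 ± 0.14 (limma adjusted p = 5.1e-06) where the member probe fell by 1.36 ± 0.21. For Prkar2b the member probe changed by -2.40 ± 0.19. The further probes of Prkar2b changed by -0.67 ± 0.12 and -0.48 ± 0.17 (limma adjusted p = 0.00039 and 0.051). They read 9.06 and 8.46 at 0 h, where the member read 12.27, and the size of the fall of this gene is uncertain. The second probe of Myl12b, a myosin regulatory light chain with a near-identical paralogue, changed by -0.34 ± 0.13 (limma adjusted p = 0.079) where the member changed by -0.91 ± 0.08, and the fall of this gene is uncertain. Which transcripts each probe reads was not tested.

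Gene lists that describe myoblast proliferation and muscle differentiation held few of these genes. With 1 probe a gene, 13254 genes were tested, of which 10.7% were lower and 9.88% higher from 9 to 96 h, with a median of 0.00. Of 43 tested genes of growth factor and TGF-beta signalling, 16 were lower and 2 higher, with a median of -0.30, and 4 of the 16 (Bmp4, Ccl7, Cxcl1 and Sfrp1) were members. No other list held a member. Among these, DNA replication had 20 of 42 genes lower, mitotic cyclins, kinases and checkpoint genes 16 of 29, kinetochore and spindle genes 35 of 51, and condensin, cohesin and chromatin genes 13 of 28, with 1 of the last higher. Muscle contractile and metabolic genes had 34 of 40 higher and 0 lower. Myoblast regulators had 5 of 24 lower and 0 higher, and actin and adhesion genes had 13 of 33 lower and 0 higher. Extracellular matrix genes had 9 lower and 10 higher of 48. For G1/S regulators 6 of 25 were lower and 2 higher, for DNA repair 7 of 30 and 1, for nuclear transport and RNA processing 9 of 24 and 2, for ribosome biogenesis 2 of 19 and 3, and for sterol synthesis 3 of 24 and 2.

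Macrophage and endothelial markers lay close to the floor of the table. Of 11 macrophage markers 4 passed the filter on dim probes and 0 were called by limma, and the mean of their levels was 8.48 to 8.58 at 9 h and 8.45 to 8.47 at 96 h. For 7 endothelial markers 0 were called, with mean levels of 8.42 to 8.48 and 8.48 to 8.5. Adipocyte and neuron markers each had 2 of 7 lower, with mean levels of 9.21 to 9.36 and 8.79 to 8.90 at 9 h and 8.76 to 8.87 and 8.66 to 8.77 at 96 h. The part of the 2 last sets in the falls described here was not tested.

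Compared with the 40 probes that met every limit but recovery, and the 82 that met every limit but the one at 12 h, the members' later fall was set side by side on the arrays that the rule had not read. From 24 to 96 h, 75.9% of the members, 27.5% of the 40 and 69.5% of the 82 were lower. From 9 to 96 h the shares were 98.1%, 60.0% and 89.0%, with median changes of -1.38, -0.93 and -1.37. From 9 to 24 h they were 16.7%, 10.0% and 24.4%. The limits of the rule order the sets in part by these values, and the differences between the sets were not tested. Genes of the fixed lists in the group that fell earlier were Ccnd1, Grem1, Hgf, Id1, Id3, Igfbp2, Lox, Lpl, Snai2 and Stmn2, and in the group that came back Cebpa, Dkk3, Igfbp5, Mmp2, Sfrp2 and Tgfbr1.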

How the data were processed

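Total RNA of 36 C2C12 cultures was amplified, labelled with biotin and hybridised to Illumina arrays, per the labels' protocols. The authors deposited a table of raw probe intensity values, from 91.5 to 72391 on a linear scale, and a normalized table of log2 values from 8.33 to 16.2, made by a normalization of unstated method (none is given in the sources used here). The series' value table, also deposited, holds log2 values too, and its 44505 rows each equalled 1 row of the normalized table to 5 decimals on all 36 arrays; this match gave probes their names through the platform annotation, with symbols checked by gene ID. Of its probes, 28471 had 1 symbol, 10 several and 16024 none, and a further 1514 probes had no row.

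Levels and the choice of members come from the normalized table. Tests come from the raw intensities, corrected with limma's normexp method (offset 50), taken to log2 and quantile-normalized over 36 arrays. Probes above their array's median on at least 3 arrays were tested (29812 kept, 16207 removed). A mean for each of 8 times was fitted to the 24 arrays the rule did not read, and variances were moderated by limma's eBayes with an intensity trend. P-values were two-sided and Benjamini-Hochberg adjusted over all tested probes. Replicates were growths from successive passages, and no chip held arrays of different replicate numbers. The p-values therefore measure the spread between growths and chips together. Same-numbered arrays deviated together (correlations of 0.21 to 0.65 over probes in each comparison), so the numbers were taken to pair them. From 24 to 96 h and from 9 to 96 h, only the pair of replicate 1 shared a chip. The part of growth and of chip in these correlations was not tested. The fit behind the p-values given here had no term for this pairing. The replicate number was tried as a block only among the alternative settings. The 6 chips held 6 arrays each and were tried as a block.

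The members and lists were chosen with earlier results of these data known. Named genes are the members of each list, the 12 members with the largest fall from 9 to 96 h and those nearest a limit; other genes named by role, by their share of the fall or by array, and other probes, were chosen after their values were seen. For a gene with several member probes, both are given or the brighter stands for it. Array number limits the precision. R 4.3.3, limma 3.58.1, Python 3.11.15 and pandas 2.3.3 were used.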

Additional observations from a re-analysis of the deposited data

How the results depend on the processing

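The members' count lower from 9 to 96 h stayed between 45 and 53 under every alternative tried except the fits without a whole replicate, which gave 40 to 51, and 40 of the 54 members kept the same call in up to 15 settings. From 24 to 96 h the count was 39 to 44 under the processing alternatives and 23 to 41 without a replicate or an array. From 9 to 24 h it was 9, and 4 under median scaling, 4 with only the 2 times compared, 16 with the replicate block, 18 and 14 with the chip as a fixed and a random block, and 2 to 10 without a replicate or an array. From 3 to 9 h it was 0, and 3 with the replicate block, 1 with the chip as a random block and 0 to 1 without a replicate or an array. Some members were called higher from 3 to 9 h, 2 with the replicate block, 1 with the chip as a fixed block and 2 with it as a random block. The share of all probes called higher under these blocks was not counted. The replicate block moved no other count of members by more than 1.5 times, but it raised the share of all tested probes lower from 4.53% to 8.51% between 24 and 96 h and from 8.56% to 13.1% between 9 and 96 h. The cause of these shifts was not tested. Membership itself depended on the table and the limits. The rule found 143 probes on the reprocessed raw intensities, 42 of them members, 144 with a 48 h limit of -1, 21 with -1.4, 91 with a 12 h limit of -0.6, 25 with -0.2, and 46 to 77 without 1 array at 144 h, an alternative added after seeing the data. No count of members from 9 to 24, 24 to 96 or 9 to 96 h and no member's 9 to 96 h change turned direction. The median 9 to 24 h change of the 30 probes high on at least 1 of 3 arrays went from -0.31 to 0.01 without replicate 3 at 9 h. That array was 1 of those used to pick the 30. Detection p-values were not used here, so how far dim second probes rise above background is not known.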
